A study of Canis lupus familiaris with 34 samples.

Results

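Sebaceous and sweat gland genes were followed through 34 primary canine cutaneous mast cell tumours (MCTs). The genes were chosen by name, with earlier results of these data known, as 10 genes that mark skin glands: KRT7, KRT8, KRT18, KRT19, KRT79, AWAT2, ELOVL3, FAR2, MC5R and AQP5. Of these, 9 are represented by a Transcript cluster (the set of probes that the array summarises to 1 value for a gene), out of 16295 genes with a single symbol in the platform annotation. AQP5, the water channel of secretory cells, has no cluster under its symbol or its gene identifier and was not measured here. All 9 clusters passed a filter on level, like 19246 of the 32391 clusters in the table, which required at least 30% of the tumours of a group to exceed 1.84, the table median. ELOVL3 and MC5R passed it only through the non-metastasising tumours.

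The tumours came from 18 dogs in which the MCT metastasised (M) and 16 dogs in which it did not (NM), with 1 tumour per dog and 12 breeds in all, counting cross-breeds as 1. The M dogs had died or been put to sleep because of metastases, whatever treatment had followed surgery. The NM dogs had surgery alone and were long-term survivors in which no metastasis was found. No line, genotype or agent was introduced. The dogs of the M group were the older on the median, the NM biopsies had been stored for longer on average, and each group held both sexes. Each value is a log2 expression value from a formalin-fixed biopsy, which can hold skin beside the tumour, and 1 log2 unit is a doubling. In such bulk samples fewer cells of a type and less RNA per cell cannot be told apart.

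Sebaceous glands open into the hair follicle, and their cells fill with lipid and burst to release sebum, a mixture rich in wax esters, cholesterol esters and triglycerides. The sweat glands of the haired skin of dogs are of the apocrine kind and also open into the follicle, while eccrine glands are found in the footpads. Both kinds of gland carry keratins of simple epithelia, such as KRT7, KRT8, KRT18 and KRT19, that the keratinocytes of the epidermis make little of. A skin biopsy of an MCT can therefore include gland tissue as well as epidermis, follicles, fat and muscle.

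The arrays had medians from 1.79 to 1.91 in M and from 1.80 to 1.87 in NM, and the mean correlation of an array with the others ran from 0.79 to 0.89 in M and from 0.79 to 0.90 in NM. Markers of mast cells were measured in both groups over a wide range. KIT, the stem cell factor receptor, ran from 1.73 to 4.88 in M and from 1.94 to 5.46 in NM, and CPA3, a mast cell carboxypeptidase, ran from 1.79 to 8.46 in M and from 1.71 to 8.11 in NM. The lowest CPA3 values of both groups lay below the table median, so that for such biopsies the mast cell identity rests on the label. The number of arrays limits the precision, and their processing batches are not given in the sources used here.

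Relative to their own medians, the gland genes were high in a few biopsies rather than throughout either group. A tumour was counted as high for a gene where its value was more than 1 above the median of the 34 tumours. Such a count does not show that a gene was absent elsewhere. KRT7 and KRT18 lay above the table median in all 34 tumours and KRT79 in 33. By the count of high values, 8 tumours were high for at least 1 gland gene, 2 of them M and 6 NM. NM14, from the only Miniature Schnauzer, was high for 5 of the 9 genes, namely KRT7, KRT18, KRT79, ELOVL3 and FAR2, while 8.08% of all clusters tested were high in that tumour. NM1, from a Boxer, was high for KRT79 and ELOVL3, with 7.52% of all clusters high. The other 6 tumours were high for 1 gene each. This was KRT18 in M2, M14 and NM10, where 8.92%, 2.07% and 2.48% of all clusters were high. It was ELOVL3 in NM9 (6.93% of clusters) and NM16 (1.63%), and KRT79 in NM15 (2.77%). KRT8, KRT19, AWAT2 and MC5R were high in 0 of the 34 tumours, and their whole ranges were only 1.18, 1.24, 1.06 and 0.93. For comparison, 39.3% of all clusters tested were high in at least 1 tumour, against 5 of these 9 genes. The highest tumour was an NM tumour for 42.7% of clusters, against 8 of these 9 genes, all but KRT19. That tumour was NM14 for KRT7, KRT18, KRT79, ELOVL3 and FAR2, and NM3 for AWAT2 and MC5R. For KRT8 it was NM10, with 2.284 against 2.281 in M10. These counts were not tested.

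**Figure D1:**
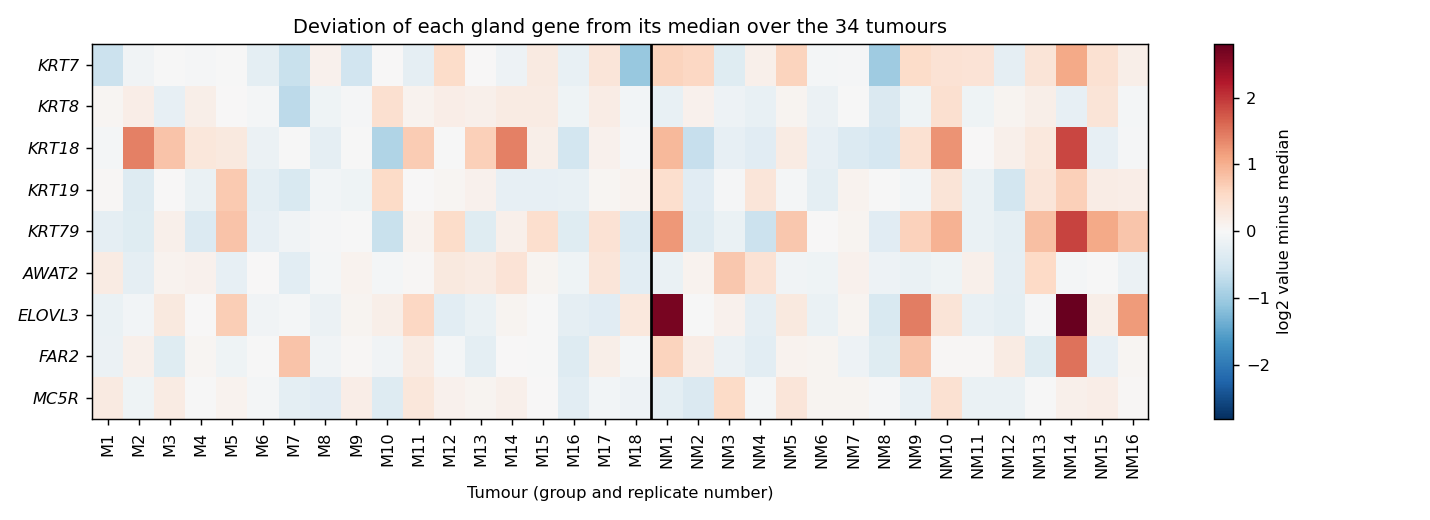
Deviation of each of the 9 gland genes (rows) from its median over the 34 tumours, in log2 units, for every tumour (columns, M left of the black line and NM right of it). The darkest red cells are ELOVL3 in NM1 and NM14, and the column of NM14 is red for KRT7, KRT18, KRT79, ELOVL3 and FAR2 but pale for KRT8, AWAT2 and MC5R.

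Among the 9 genes, ELOVL3 reached farthest above its own median (2.78). ELOVL3 elongates very long chain fatty acids and in mice is expressed in sebaceous glands and hair follicles. Its lowest, median and highest values were 1.23, 1.53 and 2.25 in M, against 1.14, 1.65 and 4.33 in NM (cluster 14368413), and 8 of the 34 tumours lay above the table median. The highest M tumour was M5 with 2.25, from a Curly Coated Retriever. The values of NM14 (4.33), NM1 (4.20), NM9 (2.99) and NM16 (2.74) lay above every M tumour, while the other 12 NM tumours lay within or below the M range. These 4 NM dogs were a Miniature Schnauzer, a Boxer, a Golden Retriever and a Whippet. ELOVL3 averaged 1.59 ± 0.29 in M (SD, n = 18) and 2.03 ± 1.01 in NM (SD, n = 16), a difference, M minus NM, of -0.45 with a 95% interval from -0.93 to 0.04. This did not pass the limma test (p = 0.0708, adjusted p = 0.9997 after Benjamini-Hochberg over all clusters tested), nor a two-sided permutation test of the means (p = 0.0811). Without NM14 the difference was -0.29 (p = 0.155), and the unadjusted limma p was under 0.05 without NM4 (0.0495), NM8 (0.0434) or NM12 (0.0486).

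FAR2 reduces fatty acyl-CoA to the fatty alcohols from which wax esters are made. It ran from 1.44 through a median of 1.77 to 2.61 in M, against 1.46, 1.85 and 3.33 in NM (cluster 14366159), with 15 of the 34 tumours above the table median. NM14 (3.33) stood alone at the top, followed by M7 and NM9 (both 2.61) and NM1 (2.43), so that the next values came from both groups. The difference between groups was -0.14 (interval from -0.41 to 0.12, limma p = 0.273, adjusted p = 0.9997), and -0.05 without NM14 (p = 0.612).

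AWAT2, the enzyme that joins fatty alcohols to fatty acids in wax esters, did not share this pattern. Its lowest, median and highest values were 1.53, 1.89 and 2.22 in M, against 1.59, 1.77 and 2.59 in NM (cluster 14462658). The highest tumours were NM3 (2.59), NM13 (2.41) and NM4 (2.25), above all M tumours, whereas NM14 (1.78) and NM1 (1.65) lay below the median of the 34 tumours, 1.84. The other NM tumours lay within the M range, and the group means had a difference of -0.01 (interval from -0.19 to 0.16, limma p = 0.872). MC5R, a melanocortin receptor that in mice is needed for full sebum production, ran from 1.35 through 1.71 to 2.02 in M, against 1.31, 1.72 and 2.24 in NM (cluster 14261255). Its difference was -0.04 (interval from -0.21 to 0.12, limma p = 0.605), and its whole range over the 34 tumours was 0.93.

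**Figure D2:**
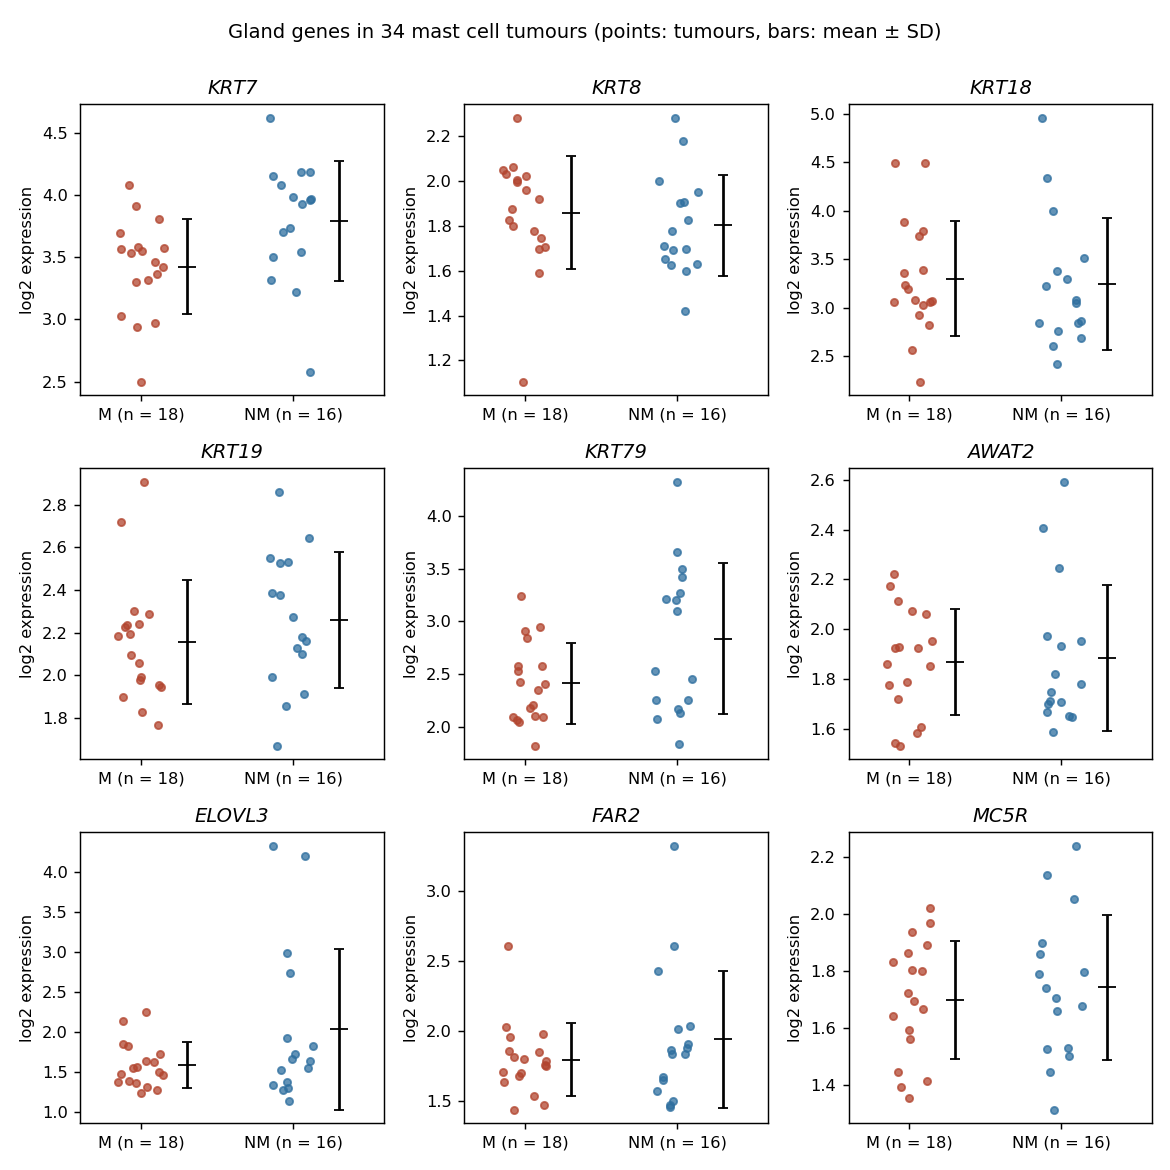
Log2 expression of the 9 gland genes in each of 18 M and 16 NM tumours (points), with the mean ± SD of each group as a bar beside the points; each panel has its own axis, which does not start at 0. The 4 NM tumours from 2.74 to 4.33 in the ELOVL3 panel lie above all M tumours, while the AWAT2, MC5R and KRT8 panels show overlapping groups within narrow ranges.

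KRT79 is a keratin that in mice marks the funnel of the hair follicle and the sebaceous duct. Its values were 1.82, 2.38 and 3.24 in M (lowest, median, highest), against 1.84, 2.81 and 4.32 in NM (cluster 14362515). The highest M tumour, M5 (3.24), was exceeded by NM14 (4.32), NM1 (3.66), NM15 (3.50), NM10 (3.42) and NM13 (3.27), and the other 11 NM tumours overlapped with M. The mean was 2.41 ± 0.38 in M (SD, n = 18) and 2.84 ± 0.71 in NM (SD, n = 16), a difference of -0.42 with an interval from -0.81 to -0.04. At an unadjusted p of 0.0302 in limma and 0.0349 in the permutation test, KRT79 did not pass after adjustment (0.9997), and by ranks the permutation p was 0.0816. Without NM14 the difference was -0.33 (p = 0.0644), and the p was also over 0.05 without NM1 (0.0562), NM10 (0.0508) or NM15 (0.0527).

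The keratins of simple epithelia behaved differently from one another. KRT7, found in gland ducts and secretory coils, ran from 2.50 through 3.50 to 4.09 in M, against 2.57, 3.95 and 4.63 in NM (cluster 14365442). All 34 tumours lay above the table median for this gene, and 5 NM tumours lay above every M tumour, although the lowest NM value (NM8, 2.57) was close to the lowest M value (M18, 2.50). The mean was 3.42 ± 0.38 in M (SD, n = 18) and 3.80 ± 0.48 in NM (SD, n = 16). The difference was -0.37 (interval from -0.67 to -0.07), with an unadjusted p of 0.0156 in limma, an adjusted p of 0.9997 and a permutation p of 0.0175.

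KRT18, a type I keratin that pairs with KRT8, was the only measured gland gene high in M tumours. It ran from 2.24 through 3.13 to 4.49 in M, against 2.42, 3.07 and 4.96 in NM (cluster 14365419). M2, from a cross-breed dog, and M14, from a Labrador Retriever, both reached 4.49, between NM14 (4.96) and NM10 (4.34). The group means differed by 0.06 (interval from -0.37 to 0.49, limma p = 0.778). KRT8 itself ran from 1.11 through 1.90 to 2.28 in M, against 1.42, 1.74 and 2.28 in NM (cluster 14362501). It was above the table median in 16 of the 34 tumours, and its correlation with its partner KRT18 over the tumours was 0.10 (adjusted permutation p = 0.686). The median of KRT8, 1.83, lay below the table median and its whole range was 1.18, which limits what this correlation can show. KRT19, which also marks outer root sheath and stem cells of the follicle, ran from 1.77 through 2.14 to 2.91 in M, against 1.67, 2.23 and 2.86 in NM (cluster 14445544). M5 (2.91), NM14 (2.86) and M10 (2.72) had the highest values, so both groups reached the top. The differences of KRT8 and KRT19 were 0.06 (interval from -0.11 to 0.23) and -0.10 (interval from -0.31 to 0.11), with limma p of 0.513 and 0.332.

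Read together, 0 of the 9 gland genes passed the limma test after adjustment, against 0% of the 19246 clusters tested, among which the smallest adjusted p was 0.558. At an unadjusted p under 0.05, 2 of the 9, KRT7 and KRT79, were lower in M, against 2.8% of all clusters tested, and 0 were higher in M, against 1.34%. The mean was lower in M for 7 of the 9 genes and for 56.1% of all clusters. The median difference was -0.10 over the 9 genes and -0.02 over all clusters tested. Keratinocyte genes were also lower in M, at an unadjusted p under 0.05 for 13 of the 20 tested, with a median difference of -0.44. With their mean z-score as a covariate, the difference of KRT7 was -0.15 (p = 0.295) and that of KRT79 -0.05 (p = 0.762), and KRT18 was higher in M by 0.44 (p = 0.0288), with 0 of the 9 genes past adjustment. A limma test of the interaction of metastasis with the dog's sex found 0 clusters past adjustment, the gland genes included (smallest adjusted p = 0.514). At an unadjusted p under 0.05 there were 974 of the 19246 clusters tested, and the smallest p of a gland gene was 0.19 (AWAT2).

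**Figure D3:**
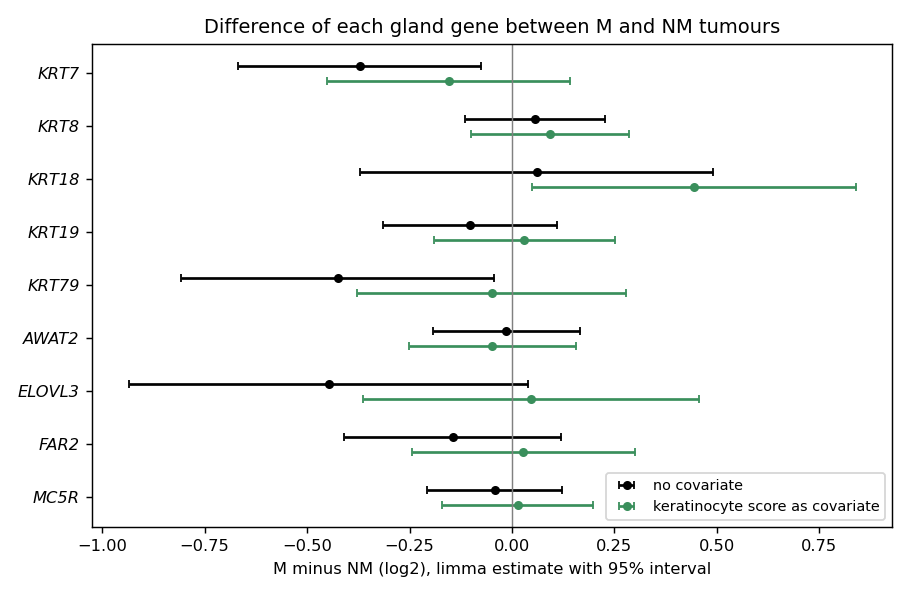
Difference in log2 expression, M minus NM, of the 9 gland genes with 95% intervals from limma (x axis), without covariate (black) and with the keratinocyte score as covariate (green). Without covariate the intervals of KRT7 and KRT79 lie below 0; with it they span 0, and the interval of KRT18 lies above 0.

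Gland genes that were high in the same biopsies were found by correlation over the 34 tumours. The 9 genes make 36 pairs, whose median Pearson r was 0.21 (range from -0.36 to 0.72), and 10 pairs passed a permutation test after adjustment, all with positive r. KRT79 and ELOVL3 had an r of 0.72 (Spearman rho 0.50), with a permutation p of 1e-05, the smallest that the resampling can give, and an adjusted p of 0.00036. Without NM1 and NM14, the tumours farthest from the median of KRT79, r was 0.50 (adjusted p = 0.0527). It was 0.24 within M and 0.78 within NM, a difference that was not tested. ELOVL3 and FAR2 had an r of 0.71 (adjusted p = 0.00456) but a rho of 0.30 (adjusted p = 0.218), and r was 0.39 without NM1 and NM14, so this relation rests on those tumours. KRT7 and KRT79 had an r of 0.66 and a rho of 0.56, both past adjustment, and an r of 0.57 without M18 and NM14. This was the only pair that also passed adjustment after leaving out the 2 tumours farthest from the median. The others of the 10 pairs were KRT18 with KRT79, ELOVL3 and FAR2, KRT19 with KRT79 and ELOVL3, KRT79 with FAR2, and KRT7 with ELOVL3, with r from 0.47 to 0.54. By ranks none of these others passed, with adjusted permutation p from 0.0808 (KRT18 with KRT79) to 0.328 (KRT79 with FAR2). AWAT2 was in none of the 10 pairs, and its r was -0.29 with ELOVL3 and -0.36 with FAR2 (adjusted p = 0.159 and 0.098). KRT79, KRT8 and KRT18 are near neighbours in the gene order of the dog assembly UU_Cfam_GSD, with 1 gene between KRT8 and KRT18 and 2 between KRT8 and KRT79. KRT8 and KRT79 had an r of 0.08 (adjusted p = 0.738), which the low values of KRT8 also limit.

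The gland genes were then set against the mean z-scores of genes of other tissues in the biopsy, 45 relations in all, of which 13 passed a permutation test after adjustment. The keratinocyte score went with KRT79 (r = 0.72, rho = 0.67), ELOVL3 (r = 0.72, rho = 0.48), KRT7 (r = 0.59), KRT18 (r = 0.51), FAR2 (r = 0.48) and KRT19 (r = 0.46). Without NM1 and NM14, the tumours farthest from the median of this score, r was 0.58 for KRT79, 0.55 for ELOVL3 and 0.46 for KRT7. It was 0.33 for KRT18 (permutation p = 0.0638), 0.27 for KRT19 (p = 0.129) and 0.17 for FAR2 (p = 0.359), so these 3 values of r depended on those tumours. By ranks over the 34 tumours, KRT18 (rho = 0.52, adjusted permutation p = 0.0112) and KRT19 (rho = 0.44, adjusted permutation p = 0.0406) passed. FAR2 did not (rho = 0.30, adjusted permutation p = 0.158), and its r was -0.14 within M. The hair follicle score, made of inner root sheath and hair shaft keratins and their regulators, went with KRT79 (r = 0.75, rho = 0.69), KRT7 (r = 0.63), KRT19 (r = 0.58), ELOVL3 (r = 0.54), KRT18 (r = 0.48) and MC5R (r = 0.44). Without NM10 and NM14, r was 0.22 for KRT18 (permutation p = 0.221) and 0.32 for MC5R (p = 0.0773). MC5R passed by ranks over the 34 tumours (rho = 0.54, adjusted permutation p = 0.0097), and KRT18 did not (rho = 0.41, adjusted permutation p = 0.0603). The r of KRT18 thus depended on NM10 and NM14, while the relation of MC5R did not rest on them alone. KRT79 and the hair follicle score had an r of 0.72 within M and 0.72 within NM, and 0.68 without NM10 and NM14. With the keratinocyte score held constant, 1 of the 36 pairs of gland genes passed adjustment, ELOVL3 and FAR2 (partial r = 0.61, adjusted p = 0.0133). The plain r of this pair was 0.39 without NM1 and NM14, and the partial r was not computed without them. The score of mast cell genes went with AWAT2 in the negative direction (r = -0.43, adjusted p = 0.0446; rho = -0.35, adjusted p = 0.111), and r was -0.30 without M7 and NM12 (permutation p = 0.0899). The scores of adipocyte genes and of fibroblast and matrix genes passed with 0 of the 9 genes over the 34 tumours, with smallest adjusted p of 0.0636 (KRT8 and MC5R with adipocytes) and 0.0876 (KRT7 with fibroblasts and matrix). KRT8 and the adipocyte score had an r of 0.02 within M and 0.79 within NM (adjusted permutation p = 0.00345 within NM), a difference that was not tested.

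**Figure D4:**
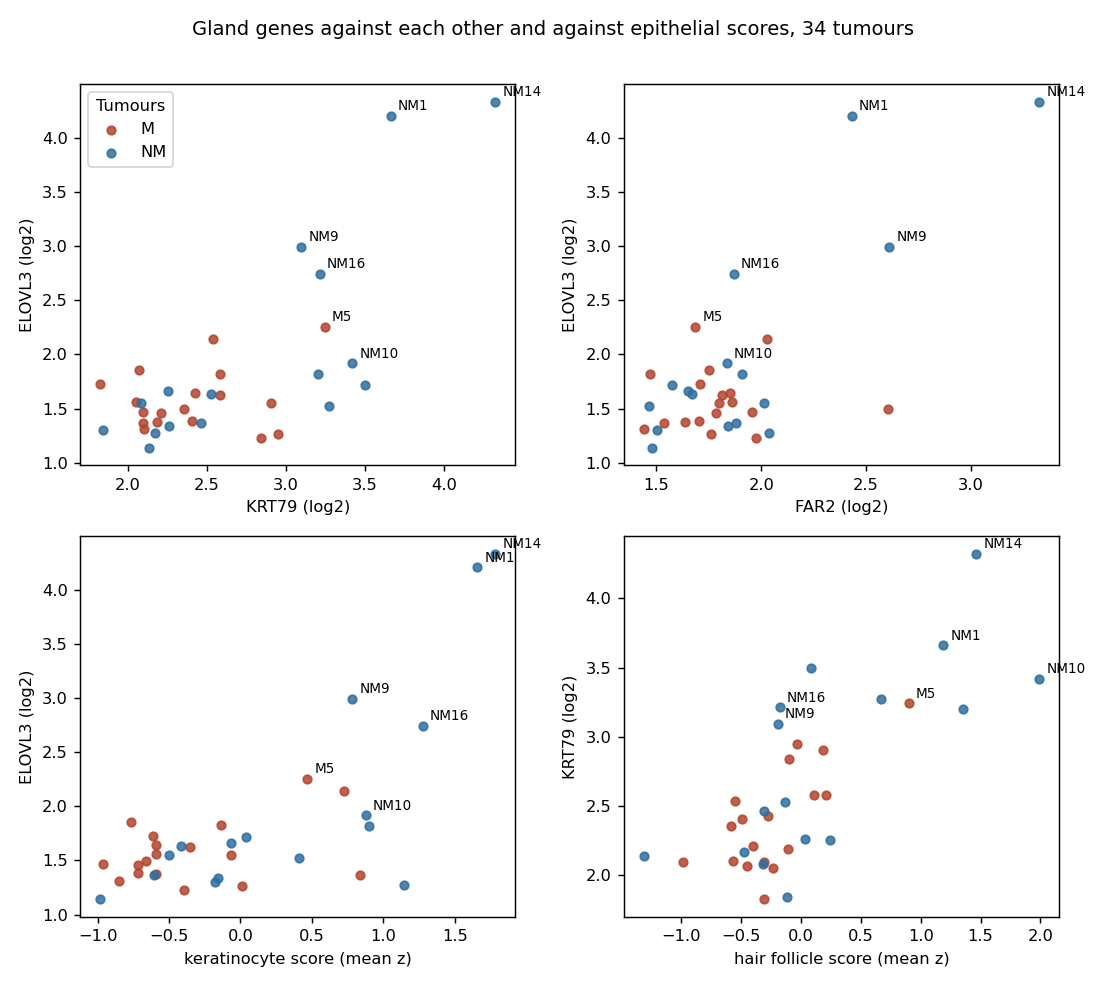
ELOVL3 against KRT79, against FAR2 and against the keratinocyte score, and KRT79 against the hair follicle score, in 18 M (red) and 16 NM (blue) tumours; genes are in log2 units and scores are mean z-scores. NM1 and NM14 lie at the top right of the KRT79, FAR2 and keratinocyte panels, where NM9 and NM16 come next in ELOVL3. In the hair follicle panel, which shows KRT79, the scores of NM9 and NM16 are -0.20 and -0.18.

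Over the 34 tumours, the genes most like ELOVL3 in pattern were FA2H (r = 0.91), which hydroxylates fatty acids, SOAT1 (r = 0.91), which esterifies cholesterol, and MEGF9 (r = 0.88). FAR2 was most like SOAT1 (r = 0.77), PIP (r = 0.74), a protein secreted by apocrine glands, and SELENOT (r = 0.73). For KRT79 they were FASN, the fatty acid synthase (r = 0.82), KRTAP3-1, a protein of the hair shaft (r = 0.80), and PROM2 (r = 0.80). KRT18 followed PYGL (r = 0.79), a glycogen phosphorylase, SREBF1 (r = 0.69), a transcription factor of lipid synthesis, and TXNDC11 (r = 0.69). KRT19 followed KRT31 (r = 0.72) and KRT25 (r = 0.65), a keratin each of the hair shaft and of the inner root sheath, and CES1 (r = 0.66). KRT7 followed NDE1 (r = 0.74), EFNB1 (r = 0.73) and TNXB (r = 0.69), a matrix protein. The likest genes were BMP15 (r = 0.79), USH1C (r = 0.79) and CSMD2 (r = 0.77) for AWAT2, LOC609817 (r = 0.64), SYBU (r = 0.61) and P2RY8 (r = 0.59) for KRT8, and CCL27 (r = 0.67), MAB21L4 (r = 0.63) and SLC5A2 (r = 0.62) for MC5R. These genes were picked as the highest of all, so their r carries no test.

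Further genes of sebum synthesis were high in NM14 and NM1, the biopsies high for both ELOVL3 and KRT79, and fewer in the other biopsies high for either. Of 30 other sebaceous genes, 19 were tested, of which 8 were high in NM14 and 8 in NM1, where 8.08% and 7.52% of all clusters were high. Among the other tumours high for ELOVL3 or KRT79, 2 of the 19 were high in NM9, 1 in NM16 and 3 in NM15. M5 had 5 of them high (7.11% of all clusters), NM10 had 4 (2.48%) and M12 had 3 (1.98%). None of these tumours was high for ELOVL3 or KRT79. Of 11 adipocyte genes, 3 were high in M5 and 3 in NM10, the most of any tumour, against 0 in NM14 and 0 in NM1. Whether the sebaceous genes high in M5 and NM10 came from fat was not tested. SOAT1 had 5.14 in NM14, 4.11 in NM1 and 3.35 in NM9 (median of the 34 tumours 1.66). FASN had 4.54 in M12 and 4.50 in M5, against 6.58 in NM10, 5.93 in NM14 and 4.88 in NM1 (median 2.94). NM10 and NM14 thus both had high FASN, but ELOVL3 was 1.92 in NM10. Chosen after their values were seen, ELOVL4, HMGCS1 and CRAT had 4.36, 4.45 and 4.83 in NM14, against medians of 1.33, 2.06 and 1.97. AWAT1, a wax ester enzyme in this list, did not pass the filter, and its highest values were 2.71 in NM14 and 2.27 in NM1 (median 1.58). Between the groups, 2 of the 19 were lower in M at an unadjusted p under 0.05, against 2.8% of all clusters tested. These were PNPLA5 by -0.40 (p = 0.0204) and FASN by -0.76 (p = 0.0336), and 0 passed adjustment. GAL (0.15, p = 0.0538) and SOAT1 (-0.48, p = 0.0754) came next.

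Of 20 other sweat gland genes tested, 2 were high in each of NM14, NM1 and NM9. This share of 10% was near the 8.08%, 7.52% and 6.93% of all clusters high there. Named after its values were seen, PIP was high in M11 (5.35) and in NM14 (6.03), NM1 (5.33) and NM9 (4.93), against a median of 2.11. The 3 NM tumours were those with the highest ELOVL3, and M11, from a Labrador Retriever, had the second highest ELOVL3 of the M tumours (2.14). The second gene high in NM14 and NM9 was LYZ, lysozyme, which leukocytes also make and which reached 8.59 in M7, and the second in NM1 was KRT77, a keratin of the sweat duct (5.06). None of the 20 differed between groups at an unadjusted p under 0.05 in limma, STC2 having the smallest p (0.168). Of all clusters tested, 2.8% were lower and 1.34% higher in M at that limit. Of 14 genes of simple epithelium, 3 were high in NM14 and 3 in NM1, with CDH1, the epithelial cadherin, at 4.34 and 3.55 (median 2.47). CDH1 (-0.42, p = 0.0469) and ESRP2 (-0.20, p = 0.0498) were lower in M at an unadjusted p under 0.05, against 2.8% of all clusters tested. All 14 means were lower in M, as were 56.1% of those of all clusters and all 20 of the keratinocyte genes. Of 8 contractile genes that gland myoepithelium shares with smooth muscle, 5 were high in NM14, led by ACTG2 (5.25, median 2.03), and 0 differed at that p in limma.

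**Figure D5:**
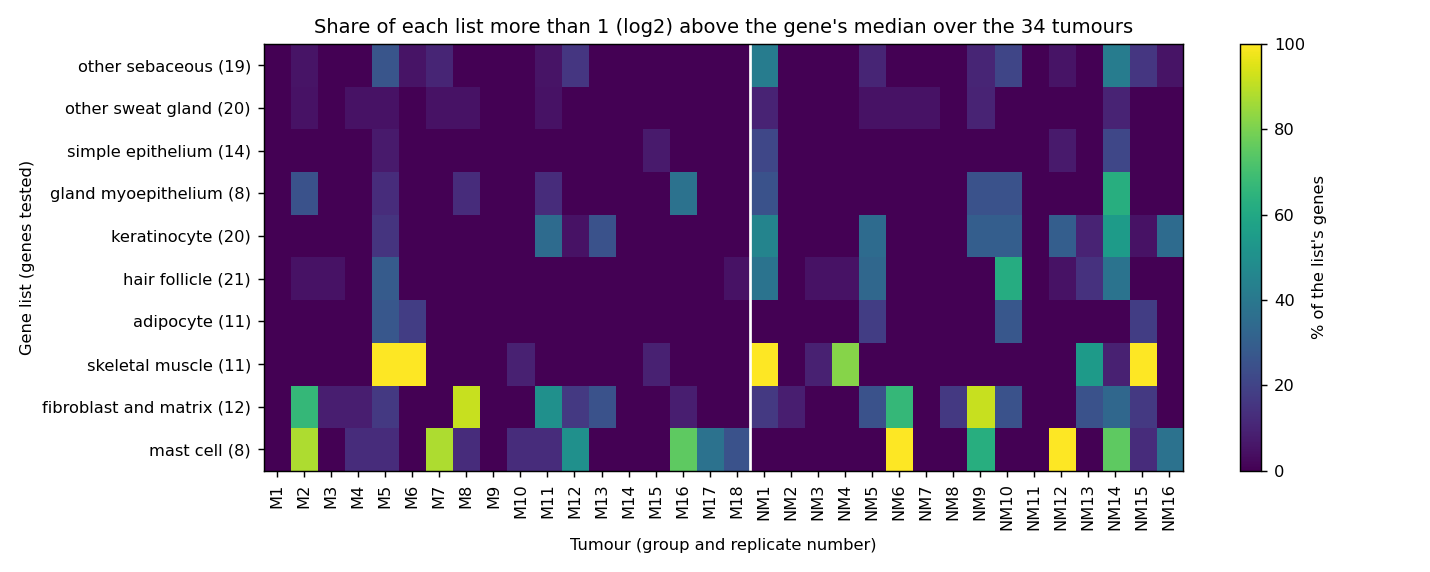
Share of the genes of each list (rows, number tested in parentheses) that were more than 1 log2 unit above their median over the 34 tumours, in percent, for every tumour (columns, M left of the white line and NM right of it). NM1 and NM14 have raised shares of sebaceous, simple epithelium, keratinocyte and hair follicle genes together, NM10 has its highest share in the hair follicle list, and skeletal muscle genes are all high in M5, M6, NM1 and NM15.

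Other tissues of the skin accompanied the gland genes in part of these biopsies. In NM14, 11 of 20 keratinocyte genes and 8 of 21 hair follicle genes were high, and in NM1 the counts were 9 and 8. NM9 and NM16, with high ELOVL3, had 6 and 7 keratinocyte genes but 0 hair follicle genes high. NM10, with ELOVL3 at 1.92, had 6 keratinocyte and 13 hair follicle genes high. NM5 had 7 of each with 0 gland genes high. M11, NM12 and M13 had 7, 6 and 5 keratinocyte genes high, also with 0 gland genes high. M2 and M14, the M tumours with high KRT18, had 0 keratinocyte genes high and 1 and 0 hair follicle genes. Skeletal muscle genes were all high (11 of 11) in M5, M6, NM1 and NM15, and 1 of 11 was high in NM14. In the list for Merkel cells, which also carry KRT8, KRT18 and KRT19, KRT20 did not exceed 1.74 in any tumour, and M14 was high for 1 of 6 genes, INSM1. Whether the gland genes came from glands, follicles, epidermis or fat in these biopsies was not tested.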

How the data were processed

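RNA from formalin-fixed biopsies of 34 MCTs was hybridised to canine gene arrays. The deposited log2 values are 1 per Transcript cluster, background-corrected, normalised and summarised by the authors with Robust Multichip Analysis after outlying arrays had been left out (Affymetrix Expression Console 1.3 in the submitters' notes). Genes were named from the platform annotation, which gives 16878 clusters 1 symbol, 289 several and 15224 none. Of a gene's clusters, the one with the highest mean was used. The genes and lists were chosen with earlier results of these data known. The study's detection filter and its restriction to uniquely hybridising clusters were not applied, so related keratins may share signal, although no gland gene shares all its values with another cluster, as 2686 clusters do. Clusters above the table median in at least 30% of either group were tested with limma 3.58.1 in R 4.3.3 without covariates, two-sided, with Benjamini-Hochberg adjustment. Permutation tests used 100000 resamples and were two-sided. Age and sex came from the study's description of the dogs and served as covariates. Scripts were tested on simulated data. Named are the gland genes, the 3 genes with 1 symbol of highest r with each, and up to 4 genes of smallest p per list; genes named for single tumours were chosen after their values were seen. Alternatives were other level filters, variance models, array weights, repeated quantile normalisation, covariates, blocks, ranks and other limits for a high value. Because AQP5 has no cluster, 36 pairs replaced the 45 planned and 45 relations with scores replaced the 50. Dog RefSeq annotation (UU_Cfam_GSD) gave gene order only.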

Additional observations from a re-analysis of the deposited data

Results flagged for a closer look

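Within breeds of 4 to 10 tumours, 36 sets of values of the gland genes were examined for a tumour far from the rest, and 4 held one, where chance flags about 1 in 20 sets and 1.8 would be expected. Among 4 Boxers, NM1 stood apart for KRT79 (3.661) and ELOVL3 (4.205). Among 6 cross-breed dogs, NM5 stood apart for KRT7 (4.189). Among 10 Labrador Retrievers, M11 stood apart for ELOVL3 (2.142).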

How the results depend on the processing

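The count of clusters past adjustment was 0 in all limma alternatives. At an unadjusted p under 0.05, 797 clusters (258 higher and 539 lower in M) became 1284 (656 and 628) without a level filter, 417 (87 and 330) with a filter at the 75th percentile, 469 (211 and 258) when the keratinocyte score was a covariate and 789 in a changed split (348 and 441) after repeated quantile normalisation. Of the 2 gland genes at that p, KRT7 and KRT79, 1 had it after adjusting for age (KRT7, while KRT79 had p = 0.0998) and 1 by ranks (KRT7), and given the keratinocyte score the count of 1 was KRT18. KRT18 turned to -0.0231 with age. With the keratinocyte score, KRT19 turned to 0.0303, ELOVL3 to 0.0462, FAR2 to 0.0276 and MC5R to 0.0136, and AWAT2 turned to 0.0580 with array weights. The cause was not tested. Tumours high for a gland gene, 2 M and 6 NM, numbered 2 (0 M and 2 NM) when the limit was 2 above the median, 8 (3 M and 5 NM, with M7 and NM3 in place of NM10 and NM15) at 3 scaled median absolute deviations, where NM14 was high for 4 genes and NM1 for 1, and 2 M and 5 NM after quantile normalisation. Pairs of gland genes past adjustment numbered 1 with the keratinocyte score held constant and 2 after quantile normalisation. Relations with scores numbered 1 within M, 8 within NM and 6 after quantile normalisation.

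Leaving out 1 tumour at a time gave 0 to 0 clusters and 0 to 0 gland genes past adjustment, 652 (without NM14) to 998 (without NM8) clusters at an unadjusted p under 0.05, and 1 to 3 gland genes at that p. The count was 1 without NM1, NM10, NM14 or NM15, each of which took KRT79 over 0.05, and 3 without NM4, NM8 or NM12. KRT7 ran from -0.45 to -0.32, under that p in 34 of 34, and KRT79 from -0.49 to -0.33, in 30 of 34. ELOVL3 ran from -0.51 to -0.29, with its smallest size without NM14, and FAR2 from -0.19 to -0.05, also without NM14. KRT18 ran from -0.00972 to 0.17, with its sign turned without M2 or M14, AWAT2 from -0.0352 to 0.0329 (sign turned without 7 of the tumours), KRT8 from 0.03 to 0.10, KRT19 from -0.15 to -0.06 and MC5R from -0.07 to -0.01. The replicate numbers do not pair the dogs (3 of 16 same-numbered pairs had a correlation over 0.1). With the replicate block, 548 clusters had an unadjusted p under 0.05, and KRT7 (p = 0.0403) and KRT79 (p = 0.0339) were among them. KRT8, AWAT2, MC5R, ELOVL3 and FAR2 had medians below the table median, where signal over background limits the ability to see a change.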
